A study of Homo sapiens with 9 samples.

Results

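The solute carrier (SLC) genes described here encode membrane transporters, measured on 9 Affymetrix 3′ expression arrays in a human breast cancer line, MDA-MB-231, which lacks hormone receptors and HER2 amplification. Genes were selected on their mean intensity: a gene was included when its symbol begins with SLC and a number and its probe set had a mean log2 intensity above 6 over the 9 arrays, with intensities under 16 set to 16. Of 238 SLC genes with a probe set of their own, 120 met this rule, and each is represented by its probe set with the highest mean. The rule used the mean over all arrays and no difference between groups. In 115 of the 120 the mean also lay above 6 in every group. The other 5, SLC12A8, SLC1A3, SLC25A23, SLC29A2 and SLC7A4, lay above it in 2 of the 3 groups, so a difference between groups could bring them in. Just inside the threshold were SLC7A4 (mean log2 intensity 6.079), SLC12A8 (6.164) and SLC46A3 (6.445), and just outside it were SLC11A1 (5.96), SLC38A4 (5.949) and SLC27A5 (5.943).

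The cells had been stably transduced with pLKO lentivirus carrying Coco shRNA #4 (shco4), Coco shRNA #2 (shco2) or a scramble control hairpin (scramble), with 3 biological replicates per group. All were grown in DMEM with 10% fetal bovine serum. Coco is the product of DAND5, a secreted antagonist of TGF-beta family ligands. Since 0 probe sets carried the symbol DAND5, its own level was not analysed here. The labels do not say whether a transduced line was a pool or a clone, and a difference between lines cannot be told apart from an effect of the hairpin. Fewer cells expressing a gene and less RNA per cell cannot be told apart in these cultures either.

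SLC proteins carry sugars, amino acids, inorganic ions, metals, nucleosides and metabolites across the plasma membrane and the membranes of organelles. Numbered families group them by sequence and mostly by cargo. SLC2 holds the glucose transporters and SLC25 mostly carriers of the inner mitochondrial membrane. SLC39 transporters bring zinc into the cytosol, and most SLC30 transporters take it out. Tumour cells are known for a high demand on several of these routes, among them the uptake of glucose and glutamine. The 120 genes comprised 7 of the 17 sugar transporters with a probe set, 19 of 41 amino acid transporters, 16 of 42 transporters of inorganic ions, 24 of 28 mitochondrial carriers and 10 of 15 zinc transporters. The other 44 belonged to smaller groups, and 2 of these genes (SLC2A4RG and SLC4A1AP) carry the prefix without being transporters.

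Array medians of the intensity lay between 122 and 129. Among markers of the line, the mesenchymal filament gene VIM averaged 12847 in shco4, 9858 in shco2 and 12333 in scramble cells, while SPARC averaged 16.1, 20.3 and 35.9 in the same groups and was near the floor of 16. The hormone receptors ESR1 (43.6, 30.8 and 25.3) and PGR (4.31, 2.45 and 0.898) and the leukocyte and endothelial markers PTPRC, CD3E, PECAM1 and VWF had no group mean above 55.4. ERBB2, the gene of HER2, had been listed as low but averaged 617, 569.7 and 724, above the array medians. CD44, listed as present, averaged 6714, 3649 and 5224. The epithelial adhesion gene CDH1 averaged 212 in shco4, 38.6 in shco2 and 96.6 in scramble cells, and the receptor kinase gene AXL averaged 2176, 8294 and 9357. KRT8 (4633, 2946 and 5131) and KRT18 (7422, 5003 and 9087) were high in every group. The part of these differences between the lines in the transporter results was not tested.

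Transporter genes changed in both directions in each comparison. With shco4, 16 of the 120 rose against scramble and 29 fell at an adjusted p under 0.05 in limma. That is 37.5% of them, against 18.8% of all 22215 probe sets and 32.8% of the 7541 genes above the same mean. With shco2, 25 rose and 22 fell, which is 39.2% against 20.7% of all probe sets and 36.4% of the genes above that mean. Between the hairpins, 23 were higher and 45 lower with shco4 than with shco2, which is 56.7% against 31.0% and 51.9%. Set beside genes of like level, the share called in either direction was thus near the background in each comparison. By direction, 20.8% of transporters rose and 18.3% fell with shco2, against 20.1% and 16.3% of genes above that mean. Genes that fell made up 24.2% of transporters with shco4, against 17.2% of genes above that mean, and those lower with shco4 than with shco2 made up 37.5%, against 28.8%. Genes that rose with shco4 made up 13.3%, against 15.7%, and those higher with shco4 than with shco2 made up 19.2%, against 23.1%. Both comparisons with scramble share the 3 scramble arrays. In 12 transporters (10.0%) the hairpins were called in opposite directions against them, beside 3.34% of all probe sets and 6.4% of genes above that mean.

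The median log2 change of the 120 genes was -0.097 with shco4, 0.021 with shco2 and -0.171 between the hairpins, against 0.008, 0.067 and -0.059 over all genes above that mean. In all, 81 were called in at least 1 comparison and 39 in none. Zinc transporters and mitochondrial carriers had negative class medians with shco4 (-0.12 and -0.20) and positive ones with shco2 (0.36 and 0.18), and between the hairpins their medians were -0.48 and -0.45. Sugar, amino acid and ion transporters had medians of -0.09, -0.23 and -0.07 with shco4, -0.19, -0.09 and -0.20 with shco2, and 0.17, -0.06 and 0.08 between the hairpins.

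**Figure D1:**
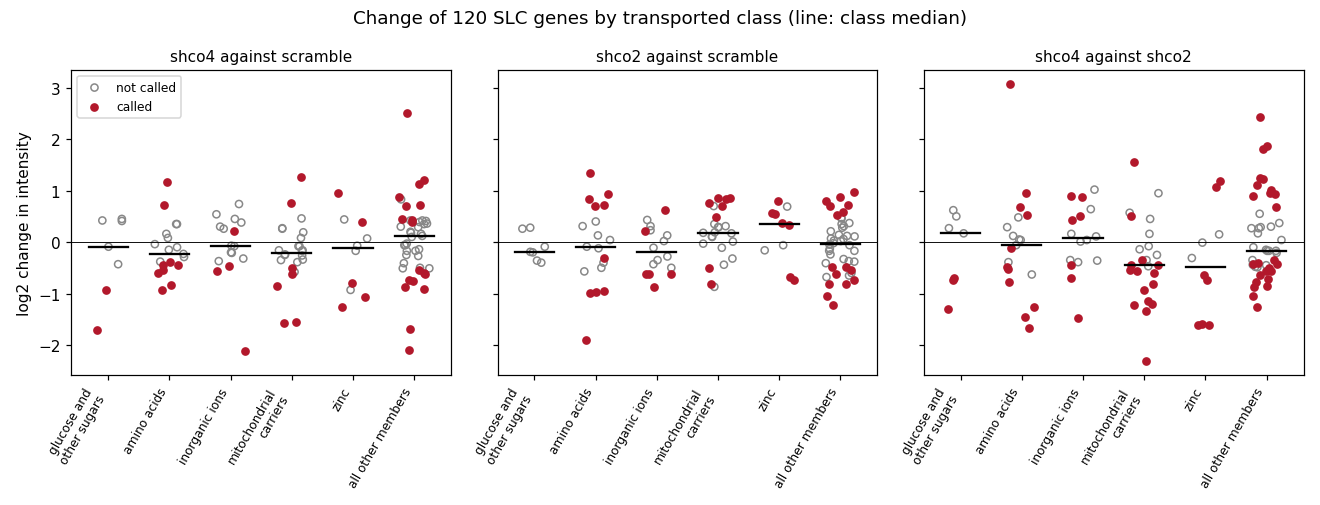
Log2 change in intensity of the 120 SLC genes by transported class, in the 3 comparisons. Each point is a gene, and a line marks the class median. Between the hairpins the mitochondrial and zinc classes lie mostly below 0, with medians of -0.45 and -0.48.

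Of the 7 SLC39 genes, the zinc importers, 1 rose and 3 fell with shco4, while 4 rose and 0 fell with shco2. Between the hairpins, 0 SLC39 genes were higher and 4 were lower with shco4. Of the 3 SLC30 genes, mostly exporters from the cytosol, 1 rose and 0 fell with shco4, and 1 rose and 2 fell with shco2. The 1 that rose with shco4 was SLC30A9, a zinc transporter of mitochondria. Between the hairpins, 2 SLC30 genes were higher and 1 lower with shco4. Among all genes above the mean of 6, 23.1% were higher and 28.8% lower in that comparison. Against scramble, 15.7% of those genes rose and 17.2% fell with shco4, and 20.1% and 16.3% with shco2.

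SLC39A14, a zinc importer that also carries iron and manganese, read 628, 741 and 757 in shco4 cells, 2171, 2157 and 2078 in shco2 cells and 1595, 1765 and 1731 in scramble cells. The 3 groups did not overlap, with shco4 lowest and shco2 highest. Its log2 change was -1.26 ± 0.077 with shco4 (limma adjusted p = 0.000397) and 0.33 ± 0.077 with shco2 (adjusted p = 0.026). The shco2 call was lost in 6 of 9 fits on 8 arrays each (adjusted p up to 0.0799, without shco2 replicate 1). Here and below, changes are on the log2 scale against scramble unless given as folds. The ± is the SE with n = 3 per group, and adjusted p-values are from limma. Called genes were named in part for groups that do not overlap, so a lack of overlap is no separate support.

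SLC39A6, a zinc importer of the plasma membrane known as an oestrogen-responsive gene in breast cancer, read 1055, 1092 and 1038 in shco4 cells, 3596, 3225 and 2993 in shco2 cells and 2529.7, 2263 and 1932 in scramble cells. Again the groups did not overlap, in the same order. It fell by 1.07 ± 0.11 with shco4 (adjusted p = 0.00171) and rose by 0.55 ± 0.11 with shco2 (adjusted p = 0.0144), and was 3.07-fold lower with shco4 than with shco2 (adjusted p = 0.000153). A further probe set of SLC39A6 gave -1.04 with shco4 and 0.66 with shco2, both called.

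SLC30A1, the zinc exporter of the plasma membrane, read 2098, 2047 and 1690.2 in shco4 cells, 1106, 797 and 711 in shco2 cells and 1571, 1377 and 1346 in scramble cells. Its shco4 arrays were the highest and its shco2 arrays the lowest. It fell by 0.74 ± 0.18 with shco2 (adjusted p = 0.0292), a call lost in 5 of 9 fits on 8 arrays each (adjusted p up to 0.0911, without shco2 replicate 2). The shco4 difference from scramble of 0.44 missed the threshold (adjusted p = 0.149) and was called in the paired fit, which takes replicate numbers as blocks (adjusted p = 0.0484). Between the hairpins SLC30A1 was 2.26-fold higher with shco4 (adjusted p = 0.00304).

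SLC30A9, a zinc transporter of mitochondria, read 1367, 1280.5 and 1258 in shco4 cells, 567, 682 and 614 in shco2 cells and 1029, 959 and 991 in scramble cells. It rose by 0.39 ± 0.071 with shco4 (adjusted p = 0.0121) and fell by 0.68 ± 0.071 with shco2 (adjusted p = 0.00157), again with no overlap between groups. SLC30A5, which loads zinc into the secretory pathway, read 462, 429.7 and 504 in shco4 cells, 677, 802 and 702 in shco2 cells and 454, 485 and 529 in scramble cells. It rose by 0.57 ± 0.093 with shco2 (adjusted p = 0.00711), though a further probe set gave 0.13 (adjusted p = 0.867), and its change with shco4 was -0.07.

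SLC39A9 rose with both hairpins, reading 734, 721 and 611 in shco4 cells, 666, 636 and 565 in shco2 cells and 337, 442 and 301 in scramble cells. Its log2 changes were 0.95 (adjusted p = 0.00822) and 0.80 (adjusted p = 0.0133), and the difference between the hairpins did not pass (0.15 ± 0.16, adjusted p = 0.583). SLC39A4, the importer known for intestinal zinc uptake, read 374, 439.5 and 386 in shco4 cells, 624, 685 and 682 in shco2 cells and 622, 811 and 656 in scramble cells. It fell by 0.79 ± 0.11 with shco4 (adjusted p = 0.00505) and its shco2 arrays overlapped those of scramble.

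SLC39A7, which releases zinc from the endoplasmic reticulum, read 1051, 360.3 and 313 in shco4 cells, 1488, 1574 and 1452 in shco2 cells and 1118, 827 and 883 in scramble cells. Replicate 1 of shco4 stood far above the other two. The difference between the hairpins of -1.61 (adjusted p = 0.0335) was lost in 8 of 9 fits on 8 arrays each (adjusted p up to 0.102, without shco4 replicate 2). SLC39A8 passed in 0 of the 3 comparisons, with changes of -0.17 and -0.16 against scramble.

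The zinc class as a whole, 10 genes, had 2 genes up and 3 down with shco4, and 5 up and 2 down with shco2. The shares of genes above the mean of 6 were 15.7% and 17.2%, and 20.1% and 16.3%. The 5 that rose with shco2 became 3 when replicate 1 or 3 of shco2 or replicate 2 or 3 of scramble was omitted. The 2 that fell with shco2 became 1 when replicate 2 or 3 of shco2 or any scramble replicate was omitted. Metallothioneins bind cytosolic zinc and MTF1 is the factor that senses it. Of these 8 genes limma called 0 in each comparison, also 0 at an unadjusted p under 0.05, with median changes of -0.17 with shco4 and -0.18 with shco2. MT2A, for example, averaged 11628 in shco4, 11312 in shco2 and 12643 in scramble cells. Metallothionein genes are close paralogs whose probe sets may share signal, so the 8 genes are not 8 separate measurements. MT1M was dim (mean log2 intensity 4.42), with 3 shco4 arrays and 2 shco2 arrays at the floor, so a change in it could hardly be called.

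**Figure D2:**
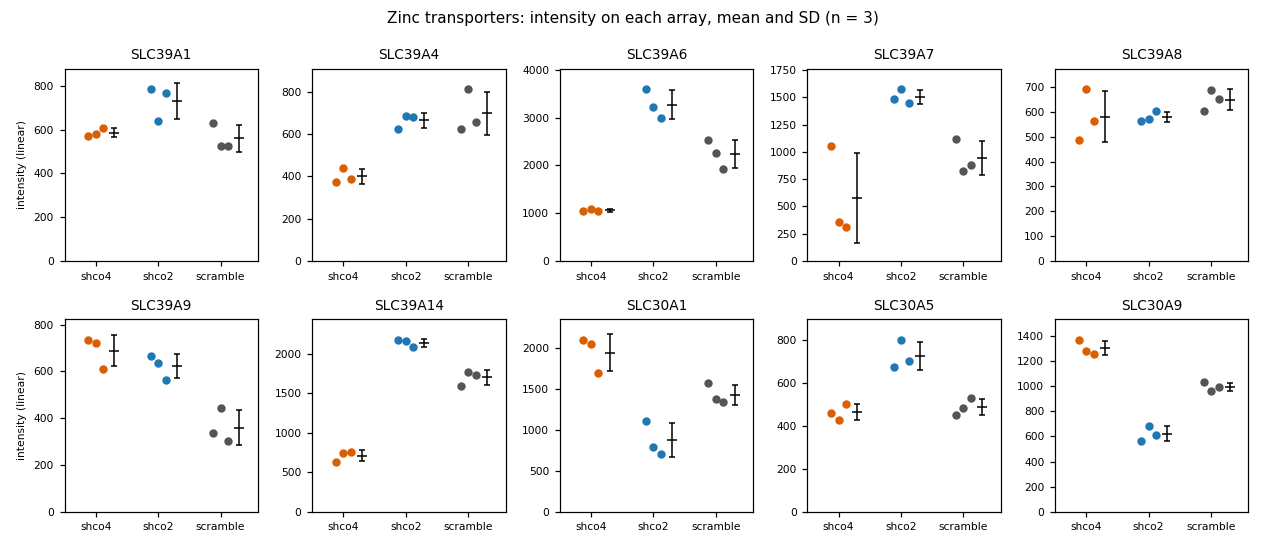
Linear intensity (vertical axes, from 0) of the 10 zinc transporter genes on each array of shco4, shco2 and scramble cells, with the mean and SD of 3 arrays beside the points. SLC39A14 and SLC39A6 are lowest with shco4 and highest with shco2, and SLC30A1 and SLC30A9 have the reverse order.

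The sequence upstream of SLC30A1 and SLC39A6 is shown because these genes differed in opposite directions between the hairpins. The windows are the 250 bases before the start site on the gene's strand, from RefSeq (GRCh38.p14), at chr1:211579162-211579411 and chr18:36129341-36129590, both on the minus strand. Capitals mark matches on either strand to TGCNCNC, a loose form of the metal response element to which MTF1 binds.
SLC30A1: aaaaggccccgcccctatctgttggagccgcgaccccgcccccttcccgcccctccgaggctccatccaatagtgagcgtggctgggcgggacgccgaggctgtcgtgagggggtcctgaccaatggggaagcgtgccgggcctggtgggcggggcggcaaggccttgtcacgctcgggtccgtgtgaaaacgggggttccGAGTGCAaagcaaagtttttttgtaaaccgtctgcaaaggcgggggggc
SLC39A6: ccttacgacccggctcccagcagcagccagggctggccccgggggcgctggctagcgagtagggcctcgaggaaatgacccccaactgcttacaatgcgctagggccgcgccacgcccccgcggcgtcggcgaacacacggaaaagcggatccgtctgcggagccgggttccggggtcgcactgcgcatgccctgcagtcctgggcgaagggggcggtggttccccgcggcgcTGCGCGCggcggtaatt
Each window holds 1 match, at -49 and -17 from the start site. Among all 27305 RefSeq windows of this length 48.4% hold the pattern, as do 2 of the 8 zinc transporter windows, so a match describes letters only.

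Of the 24 mitochondrial carrier genes, 13 were lower and 2 higher with shco4 than with shco2, beside 28.8% and 23.1% of genes above the mean of 6. Against scramble, 2 rose and 5 fell with shco4, or 4 and 8 in the paired fit with its replicate block, and 6 rose and 2 fell with shco2. The shares of genes above that mean that rose and fell were 15.7% and 17.2% with shco4 and 20.1% and 16.3% with shco2. The 2 that were higher with shco4 than with shco2 became 1 without shco2 replicate 1 or shco4 replicate 3. The class follows the family number. SLC25A17 and SLC25A46, both among those lower with shco4 than with shco2, are not carriers of the inner mitochondrial membrane.

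SLC25A40, a carrier known for the import of glutathione, read 137, 108 and 114 in shco4 cells, 588, 673 and 516 in shco2 cells and 412, 313 and 329 in scramble cells. The groups did not overlap. It fell by 1.55 ± 0.15 with shco4 (adjusted p = 0.00146) and rose by 0.76 ± 0.15 with shco2 (adjusted p = 0.0152), and was 4.95-fold lower with shco4 than with shco2 (adjusted p = 0.000147). The shco2 call was lost in 2 of 9 fits on 8 arrays each (adjusted p up to 0.0538, without scramble replicate 3).

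SLC25A4 encodes an ADP/ATP carrier and read 382, 376 and 422 in shco4 cells, 1047, 953 and 991 in shco2 cells and 736, 649 and 741 in scramble cells. It fell by 0.85 ± 0.071 with shco4 (adjusted p = 0.000941) and rose by 0.49 ± 0.071 with shco2 (adjusted p = 0.00457). Its close paralog SLC25A5, which may share signal with it, read 5981, 8175 and 7187 in shco4 cells, 9276, 8762 and 8948 in shco2 cells and 8054, 8931 and 8068 in scramble cells, with changes of -0.24 and 0.11 that did not pass. The phosphate carrier SLC25A3 did not pass either (-0.16 and -0.03).

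SLC25A37, mitoferrin 1, which imports iron for haem and iron-sulphur clusters, went the other way. It read 1593, 1307 and 1351 in shco4 cells, 472, 471 and 501 in shco2 cells and 806, 788 and 937 in scramble cells, rose by 0.75 ± 0.096 with shco4 (adjusted p = 0.00358) and fell by 0.81 ± 0.096 with shco2 (adjusted p = 0.00232). Both further probe sets of the gene were called in the same directions (1.25 and 0.83 with shco4, -0.58 and -0.66 with shco2).

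SLC25A20, which brings acylcarnitines into mitochondria for fatty acid oxidation, read 639, 395 and 360.2 in shco4 cells, 335, 286 and 289 in shco2 cells and 162, 188 and 211 in scramble cells. It rose by 1.27 ± 0.23 with shco4 (adjusted p = 0.0112), and its difference of 0.70 with shco2 did not pass (adjusted p = 0.0776). The dicarboxylate carrier gene SLC25A10 read 75.7, 165 and 106 in shco4 cells, 283, 224 and 228 in shco2 cells and 338, 378 and 280 in scramble cells. It fell by 1.58 ± 0.29 with shco4 (adjusted p = 0.0119), and its change with shco2 was -0.44.

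SLC25A32, a folate carrier, read 464, 666 and 696 in shco4 cells, 1359, 1367 and 1397 in shco2 cells and 639.8, 859.9 and 801 in scramble cells. It rose by 0.85 ± 0.18 with shco2 (adjusted p = 0.0173), a call lost in 4 of 9 fits on 8 arrays each (adjusted p up to 0.0575, without shco2 replicate 3), and was 2.29-fold lower with shco4 than with shco2 (adjusted p = 0.00284). SLC25A44, a carrier of branched-chain amino acids, rose by 0.85 ± 0.11 with shco2 (adjusted p = 0.00313) and had a change of -0.08 with shco4. SLC25A15, the ornithine carrier, fell by 0.51 ± 0.097 with shco2 (adjusted p = 0.0127), and its shco4 change of -0.35 (adjusted p = 0.051) passed in the paired fit (adjusted p = 0.0254).

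The machinery that inserts carriers was set beside them. Of 7 genes for small TIM chaperones and TOM and TIM22 subunits, 1 rose and 0 fell with shco4, and 2 rose and 0 fell with shco2. Between the hairpins, 1 of them was higher and 3 were lower with shco4. In that comparison 23.1% of genes above the mean of 6 were higher and 28.8% lower. Against scramble, 15.7% of those genes rose and 17.2% fell with shco4, and 20.1% and 16.3% with shco2. TOMM20, an import receptor of the outer membrane, rose by 0.67 ± 0.059 with shco4 (adjusted p = 0.00106), and TIMM9, a chaperone of the intermembrane space, rose by 0.73 ± 0.15 with shco2 (adjusted p = 0.0176).

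**Figure D3:**
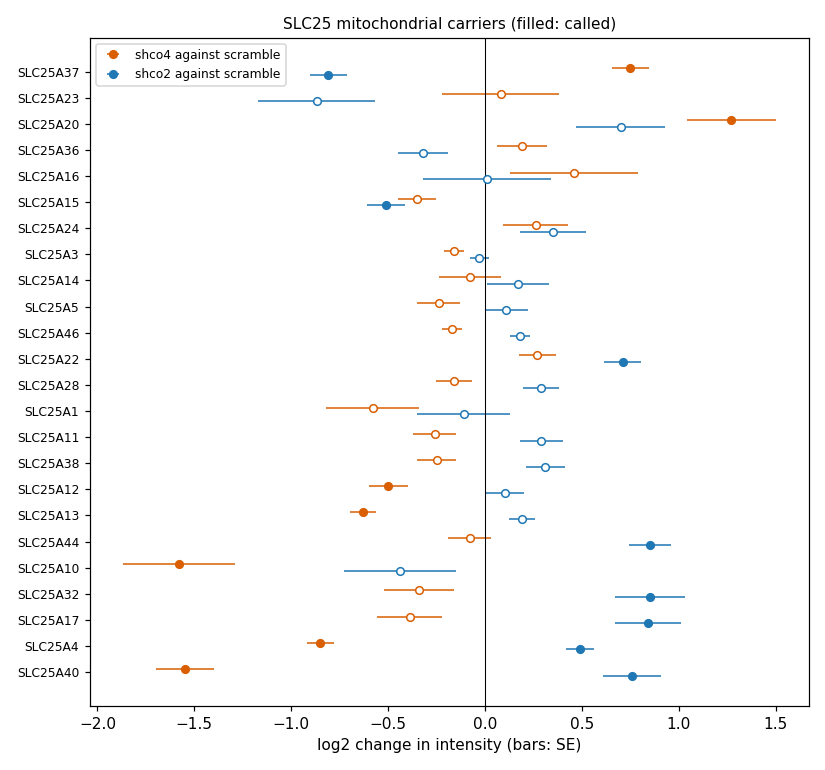
Log2 change in intensity (horizontal axis) of the 24 SLC25 genes with shco4 and with shco2 against the same 3 scramble arrays. Bars are SE, and filled points are called. SLC25A40 and SLC25A4 lie below 0 with shco4 and above 0 with shco2, and SLC25A37 has the reverse order.

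Amino acid transporters changed in both directions, with some genes called in opposite directions by the hairpins. Of 19 genes, 2 rose and 7 fell with shco4, 5 rose and 5 fell with shco2, and 4 were higher and 7 lower with shco4 than with shco2. The 7 that fell with shco4 against scramble became 4 without scramble replicate 2. The 5 that rose with shco2 became 3 when replicate 2 of shco2 or replicate 1 or 3 of scramble was omitted. Beside these counts, 15.7% of genes above the mean of 6 rose and 17.2% fell with shco4. With shco2 these shares were 20.1% and 16.3%. Between the hairpins 23.1% were higher and 28.8% lower.

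SLC1A3, a sodium-coupled glutamate transporter, read 281, 209 and 258 in shco4 cells, 22.9, 38.3 and 28.9 in shco2 cells and 102, 111 and 118 in scramble cells. It was 8.44-fold higher with shco4 than with shco2 (adjusted p = 0.000147). Against scramble it rose by 1.17 ± 0.2 with shco4 (adjusted p = 0.0098) and fell by 1.91 ± 0.2 with shco2 (adjusted p = 0.00164). Its shco2 arrays lay near the floor, and with a floor of 64 the change was -0.78 with shco2 and 1.95 between the hairpins, against 3.08 with the floor of 16.

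SLC1A4, a transporter of alanine, serine and cysteine, read 95.7, 121 and 94.7 in shco4 cells, 354, 335 and 296 in shco2 cells and 209, 197 and 149.9 in scramble cells. It fell by 0.83 ± 0.16 with shco4 (adjusted p = 0.0148) and rose by 0.83 ± 0.16 with shco2 (adjusted p = 0.0127). The shco4 call was lost in 2 of 9 fits on 8 arrays each (adjusted p up to 0.0542, without scramble replicate 2), and a second probe set did not pass with shco2 (0.76, adjusted p = 0.0582). SLC1A5, the main glutamine transporter of many tumour cells, read 871, 1373 and 1069 in shco4 cells, 589, 468 and 641 in shco2 cells and 1163, 1101 and 1092 in scramble cells. It fell by 0.99 ± 0.18 with shco2 (adjusted p = 0.0114), and its shco4 arrays spanned those of scramble.

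SLC7A1, which takes up arginine and lysine, was singled out after its values were seen. It read 918, 1295 and 1263 in shco4 cells, 2724, 2859 and 2627 in shco2 cells and 1563, 1839.6 and 1622 in scramble cells, fell by 0.54 ± 0.14 with shco4 (adjusted p = 0.0399) and rose by 0.71 ± 0.14 with shco2 (adjusted p = 0.0143). The shco4 call was lost in 7 of 9 fits on 8 arrays each (adjusted p up to 0.122, without scramble replicate 2). The shco2 call was lost in 3 of 9 such fits (adjusted p up to 0.051, without scramble replicate 1). No further probe set of SLC7A1 was called with shco4 (-0.48, -0.23 and -0.86, adjusted p = 0.101, 0.615 and 0.413). With shco2 the same probe sets gave 0.92, 0.90 and 1.25 (adjusted p = 0.0104, 0.0401 and 0.207).

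SLC3A2 is the heavy chain that partners SLC7A5, for leucine, and SLC7A11, for cystine. It read 1056, 1283 and 898 in shco4 cells, 2127, 1761 and 1615 in shco2 cells and 1076, 1133 and 712 in scramble cells and rose by 0.93 ± 0.22 with shco2 (adjusted p = 0.029), a call lost in 5 of 9 fits on 8 arrays each (adjusted p up to 0.0898, without shco2 replicate 1). SLC7A5 read 3541, 4042 and 2461 in shco4 cells, 5865, 5759.6 and 3877 in shco2 cells and 4346, 4693 and 2772 in scramble cells, with replicate 3 lowest in each group. Its changes of -0.23 with shco4 and 0.40 with shco2 did not pass, and the shco4 change passed in the paired fit (adjusted p = 0.041). SLC7A11 did not pass in any comparison, with changes of -0.15 and -0.09.

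SLC36A1, a proton-coupled transporter of small amino acids on lysosomes, read 73.7, 118 and 148 in shco4 cells, 318, 276 and 299 in shco2 cells and 121, 101 and 131 in scramble cells. It rose by 1.35 ± 0.25 with shco2 (adjusted p = 0.0118), and the shco4 and scramble arrays overlapped. SLC43A3, placed here by its family and known as a carrier of purine nucleobases, read 1165, 1444 and 1281 in shco4 cells, 1306, 1210.3 and 1233 in shco2 cells and 2765, 2419.7 and 2207 in scramble cells. It was lower with both hairpins, by 1.9-fold with shco4 (adjusted p = 0.00246) and 1.96-fold with shco2 (adjusted p = 0.00174).

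SLC38A2, a neutral amino acid transporter that responds to amino acid supply, read 3229.6, 3271 and 3267 in shco4 cells, 3602, 3696 and 3347 in shco2 cells and 4471, 4378 and 4365 in scramble cells. It fell by 0.44 ± 0.036 with shco4 (adjusted p = 0.000894) and fell by 0.31 ± 0.036 with shco2 (adjusted p = 0.00208). SLC38A10 read 1051, 794 and 897 in shco4 cells, 571, 565 and 550.1 in shco2 cells and 538, 534 and 566 in scramble cells, and it rose by 0.73 ± 0.095 with shco4 (adjusted p = 0.00371).

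Of 8 measured genes of amino acid use and sensing, 1 rose and 1 fell with shco4, and 2 rose and 1 fell with shco2. Between the hairpins, 2 were higher and 3 lower with shco4. Among genes above the mean of 6, 15.7% rose and 17.2% fell with shco4, and 20.1% and 16.3% with shco2. Between the hairpins 23.1% of those genes were higher and 28.8% lower. ASNS, asparagine synthetase, fell by 0.72 ± 0.1 with shco4 (adjusted p = 0.00483), and GLUL, glutamine synthetase, fell with shco2 (adjusted p = 0.00208), with mean intensities of 1191, 629 and 1259 in shco4, shco2 and scramble cells. LAMTOR3, part of the lysosomal scaffold for mTORC1, rose with both, by 0.51 and 0.43. ATF4, the factor that drives many amino acid transporter genes under amino acid shortage, had changes of -0.23 (adjusted p = 0.0751) and 0.04 (adjusted p = 0.839).

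**Figure D4:**
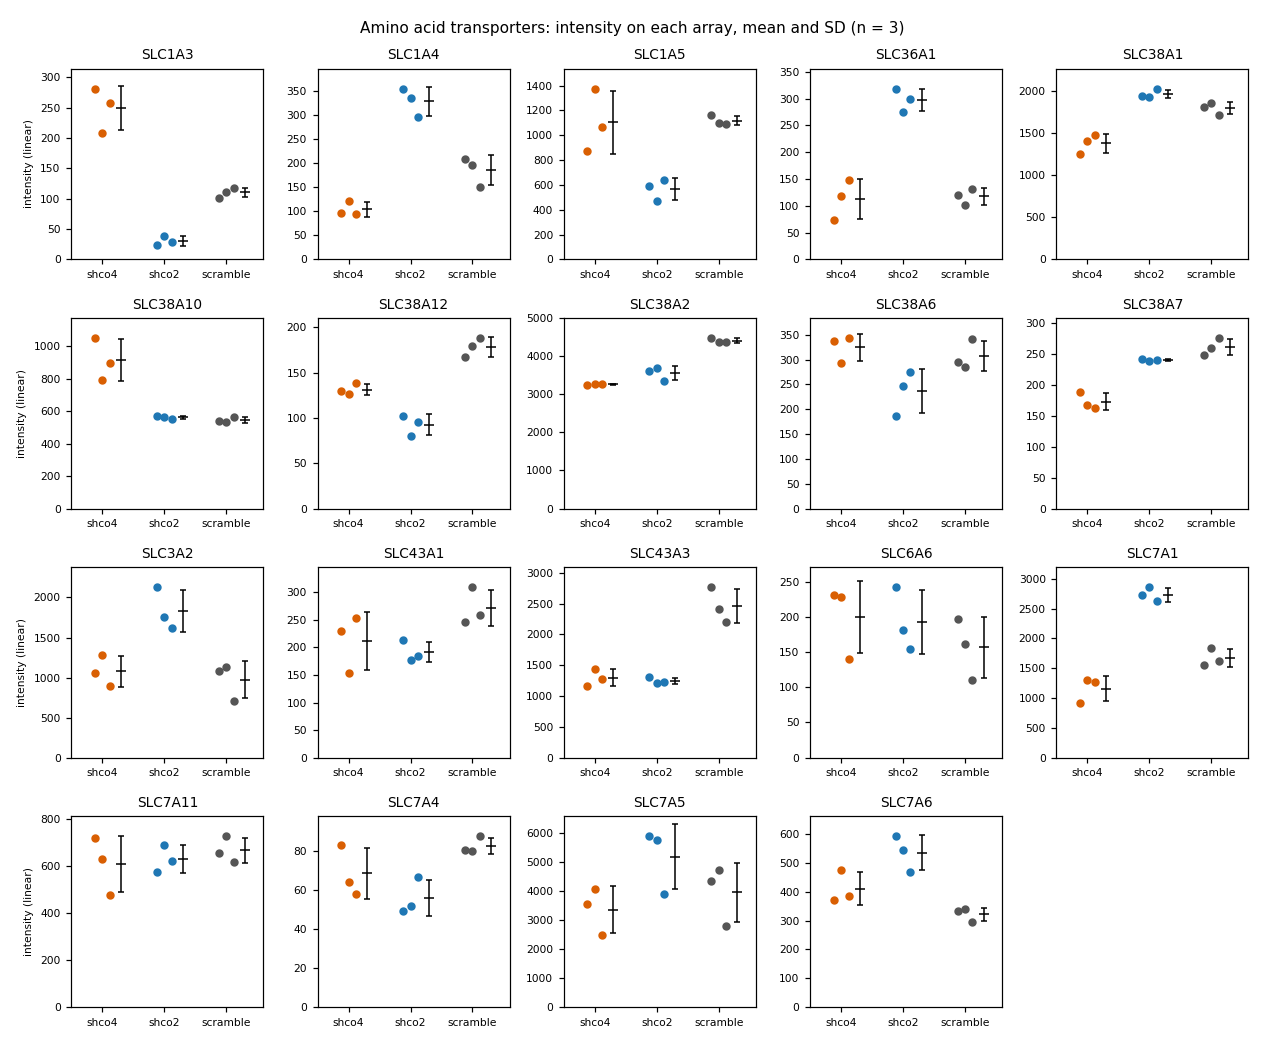
Linear intensity (vertical axes, from 0) of the 19 amino acid transporter genes on each array of shco4, shco2 and scramble cells, with the mean and SD of 3 arrays beside the points. SLC1A3 is highest with shco4 and lowest with shco2, SLC1A4 and SLC7A1 have the reverse order, and SLC43A3 is lower with both hairpins.

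Upstream windows of SLC1A3 and SLC1A4, members of 1 family that moved in opposite directions, are shown as above, at chr5:36596338-36596587 and chr2:64988229-64988478 on the plus strand. Capitals mark TGATGNAA, a core of the element bound by ATF4, in SLC1A3, and ACGTG, a core shared by hypoxia and E-box elements, in SLC1A4.
SLC1A3: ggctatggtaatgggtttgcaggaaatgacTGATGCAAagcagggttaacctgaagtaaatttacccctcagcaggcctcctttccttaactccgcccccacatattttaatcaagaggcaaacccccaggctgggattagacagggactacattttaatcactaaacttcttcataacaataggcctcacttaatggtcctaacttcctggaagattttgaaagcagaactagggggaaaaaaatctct
SLC1A4: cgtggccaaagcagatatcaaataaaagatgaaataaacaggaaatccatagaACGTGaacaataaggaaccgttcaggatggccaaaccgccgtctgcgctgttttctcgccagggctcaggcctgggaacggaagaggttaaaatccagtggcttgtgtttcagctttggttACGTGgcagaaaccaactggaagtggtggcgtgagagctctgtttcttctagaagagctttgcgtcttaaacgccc
TGATGNAA matches at -220 in SLC1A3 and is held by 3.19% of all windows, and ACGTG matches at -197 and -76 in SLC1A4 and is held by 18.7%. Both strands were searched, and no other pattern of the 3 matched in any of the 4 windows shown.

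Among sugar transporters, 2 of 7 were called with shco4 and 3 between the hairpins, beside the 32.8% and 51.9% of genes above the mean of 6 given above. Of these 7 genes, 0 rose and 2 fell with shco4, limma called 0 with shco2 (1 at an unadjusted p under 0.05, and 1 fell without shco2 replicate 1), and 0 were higher and 3 lower with shco4 than with shco2. SLC2A6, a lysosomal member of the glucose transporter family, read 154, 162 and 139 in shco4 cells, 448, 287 and 399 in shco2 cells and 589, 402 and 499 in scramble cells. It fell by 1.70 ± 0.2 with shco4 (adjusted p = 0.00286), and its change with shco2 was -0.40. SLC37A4 moves glucose-6-phosphate into the endoplasmic reticulum and read 274, 246 and 298 in shco4 cells, 401, 459.9 and 499.7 in shco2 cells and 492, 519 and 539.8 in scramble cells. It fell by 0.93 ± 0.1 with shco4 (adjusted p = 0.00212).

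SLC2A1, the main basal glucose transporter, read 1492, 1416 and 1315 in shco4 cells, 1397, 1013 and 1111 in shco2 cells and 1569, 1606 and 1328 in scramble cells. Its changes of -0.09 with shco4 and -0.36 with shco2 did not pass, and a dimmer probe set of the gene gave -0.43 with shco4 (adjusted p = 0.0494). SLC2A3, a high-affinity glucose transporter, did not pass either (0.41 and -0.09), and its probe set may also read the near-identical SLC2A14. Of 6 genes of glucose use, 1 rose and 3 fell with shco4, and limma called 0 with shco2 (3 at an unadjusted p under 0.05). Between the hairpins, 1 was higher and 4 were lower with shco4. Among genes above the mean of 6, 15.7% rose and 17.2% fell with shco4, and 20.1% and 16.3% with shco2. Between the hairpins 23.1% of those genes were higher and 28.8% lower. The hexokinase genes HK1 and HK2, whose products trap glucose in the cell, fell with shco4, with log2 changes of -1.05 (adjusted p = 0.00245) and -1.54 (adjusted p = 0.00325).

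Among 16 transporters of inorganic ions, 1 rose and 3 fell with shco4, 2 rose and 4 fell with shco2, and 4 were higher and 3 lower with shco4 than with shco2. The 4 that were higher with shco4 than with shco2 became 2 without shco2 replicate 1, 2 or 3 or shco4 replicate 2. They became 1 without shco4 replicate 1. Genes above the mean of 6 rose and fell in 15.7% and 17.2% with shco4, and in 20.1% and 16.3% with shco2. Between the hairpins 23.1% of those genes were higher and 28.8% lower. SLC12A8 read 37.8, 26.2 and 31.1 in shco4 cells, 79.1, 86.4 and 96.6 in shco2 cells and 131, 122 and 155 in scramble cells, lowest with shco4 and highest with scramble. It was 4.31-fold lower with shco4 (adjusted p = 0.000663) and 1.55-fold lower with shco2 (adjusted p = 0.0336), and the shco2 call was lost in 7 of 9 fits on 8 arrays each (adjusted p up to 0.103, without shco2 replicate 1). With a floor of 64 its shco4 change was -1.08. The mean log2 intensity of SLC12A8 was under 6 in shco4 cells (4.97), so its level in the other groups could bring it in.

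SLC20A1, a phosphate importer, read 4613, 3441 and 4158 in shco4 cells, 2774, 2741 and 3008 in shco2 cells and 5348, 4529 and 5922 in scramble cells. It fell by 0.88 ± 0.14 with shco2 (adjusted p = 0.00579), and its shco4 change of -0.37 did not pass. SLC41A3, a magnesium transporter, read 495, 502 and 488 in shco4 cells, 485, 499 and 494 in shco2 cells and 439.5, 427 and 405 in scramble cells. Both changes were 0.22 (adjusted p = 0.00457 with shco4 and 0.00433 with shco2), and neither passed with dim probe sets left out (adjusted p = 0.0582 and 0.0598). The bicarbonate transporter SLC4A7 did not pass in any comparison (-0.07 and -0.11).

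Of 9 measured pump subunits and regulators of ion transport, 0 rose and 3 fell with shco4, and 0 rose and 1 fell with shco2. Between the hairpins, 0 were higher and 3 lower with shco4. CHP1, a partner of sodium-proton exchangers, fell by 0.81 ± 0.1 with shco4 (adjusted p = 0.00325), as did the sodium pump subunit ATP1B3 (-0.60, adjusted p = 0.00923) and the scaffold NHERF1 (-0.63, adjusted p = 0.0082). Over all 39 partner genes measured, 3 rose and 7 fell with shco4, and 4 rose and 2 fell with shco2. Between the hairpins, 4 were higher and 13 lower with shco4, beside 23.1% and 28.8% of genes above the mean of 6. The shares of genes above the mean of 6 that rose and fell were 15.7% and 17.2% with shco4 and 20.1% and 16.3% with shco2, and those of all probe sets were 9.05% and 9.75%, and 10.7% and 9.95%.

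Outside these classes, of 3 nucleoside transporters 0 rose and 2 fell in each comparison with scramble. Among genes above the mean of 6, 17.2% fell with shco4 and 16.3% with shco2. SLC29A2, called in both, had a mean log2 intensity under 6 in shco4 cells (5.52), so its scramble level (7.62) could bring it in. SLC29A1, the equilibrative transporter that takes up adenosine and many nucleoside drugs, read 384, 674 and 583 in shco4 cells, 1129, 1116 and 1037 in shco2 cells and 1713, 1913 and 1545 in scramble cells. It was 3.23-fold lower with shco4 (adjusted p = 0.00303), and its shco2 difference of -0.65 did not pass (adjusted p = 0.0726). A further probe set of SLC29A1 was called with shco2 (-0.33, adjusted p = 0.0331). SLC29A2, a related transporter, read 43.1, 38.6 and 58.7 in shco4 cells, 93.8, 75.7 and 84.9 in shco2 cells and 199, 177 and 215 in scramble cells. It was 4.27-fold lower with shco4 (adjusted p = 0.000892) and 2.33-fold lower with shco2 (adjusted p = 0.0042). SLC29A3, of lysosomes, fell by 1.05 ± 0.29 with shco2 (adjusted p = 0.0449), a call lost in 8 of 9 fits on 8 arrays each (adjusted p up to 0.132, without shco2 replicate 1).

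SLC47A1, a proton-coupled exporter of organic cations and drugs, read 529, 289.8 and 387 in shco4 cells, 71.9, 61.5 and 84.4 in shco2 cells and 59.3, 71 and 76.2 in scramble cells. It was 5.7-fold higher with shco4 (adjusted p = 0.00131), while its shco2 and scramble arrays overlapped. SLC22A4, which carries ergothioneine, read 451, 376 and 383 in shco4 cells, 118, 139 and 93.9 in shco2 cells and 173, 207 and 149 in scramble cells. It rose by 1.20 ± 0.18 with shco4 (adjusted p = 0.006), and its change of -0.60 with shco2 did not pass.

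SLC67A1 (formerly SLC22A18) read 469, 395 and 404 in shco4 cells, 93.1, 120.1 and 136 in shco2 cells and 178, 196 and 204 in scramble cells. It rose by 1.13 ± 0.15 with shco4 (adjusted p = 0.00378) and fell by 0.74 ± 0.15 with shco2 (adjusted p = 0.0148), and the shco2 call was lost in 1 of 9 fits on 8 arrays each (adjusted p up to 0.0528, without scramble replicate 3). SLC66A2, also singled out after its values were seen, read 539, 523 and 469 in shco4 cells, 269.7, 252 and 265 in shco2 cells and 375, 373 and 394 in scramble cells, and it rose by 0.42 ± 0.056 with shco4 (adjusted p = 0.0042) and fell by 0.54 ± 0.056 with shco2 (adjusted p = 0.00163). SLC11A2, the proton-coupled importer of ferrous iron, read 464, 573 and 536 in shco4 cells, 727, 775 and 735 in shco2 cells and 359, 400.1 and 470.5 in scramble cells. It rose by 0.87 ± 0.12 with shco2 (adjusted p = 0.00343), and its shco4 change was 0.36.

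Nucleotide sugar transporters feed glycosylation in the Golgi and endoplasmic reticulum. The class here is the SLC35 family by number, and the cargo of each member was not checked. Its counts describe the family and are no measure of glycosylation. Of its 14 genes, 2 rose and 5 fell with shco4, and 4 rose and 1 fell with shco2. Set against shco2, 1 was higher and 7 were lower with shco4. Of genes above the mean of 6, 15.7% rose and 17.2% fell with shco4, and 20.1% and 16.3% with shco2. Between the hairpins 23.1% of them were higher and 28.8% lower. SLC35C1, the GDP-fucose transporter, fell by 0.55 ± 0.14 with shco4 (adjusted p = 0.0384) and rose by 0.71 ± 0.14 with shco2 (adjusted p = 0.0141). The shco4 call was lost in 8 of 9 fits on 8 arrays each (adjusted p up to 0.113, without scramble replicate 1), and the shco2 call was lost in 2 of 9 fits on 8 arrays each (adjusted p up to 0.051, without shco2 replicate 1). SLC35D1, which carries UDP-glucuronic acid, rose with both hairpins, by 0.40 (adjusted p = 0.0323) and 0.97 (adjusted p = 0.00134). The shco4 call of SLC35D1 was lost in the paired fit (adjusted p = 0.0574), at a second probe set (0.28, adjusted p = 0.255) and in 7 of 9 fits on 8 arrays each (adjusted p up to 0.0922, without shco4 replicate 1).

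**Figure D5:**
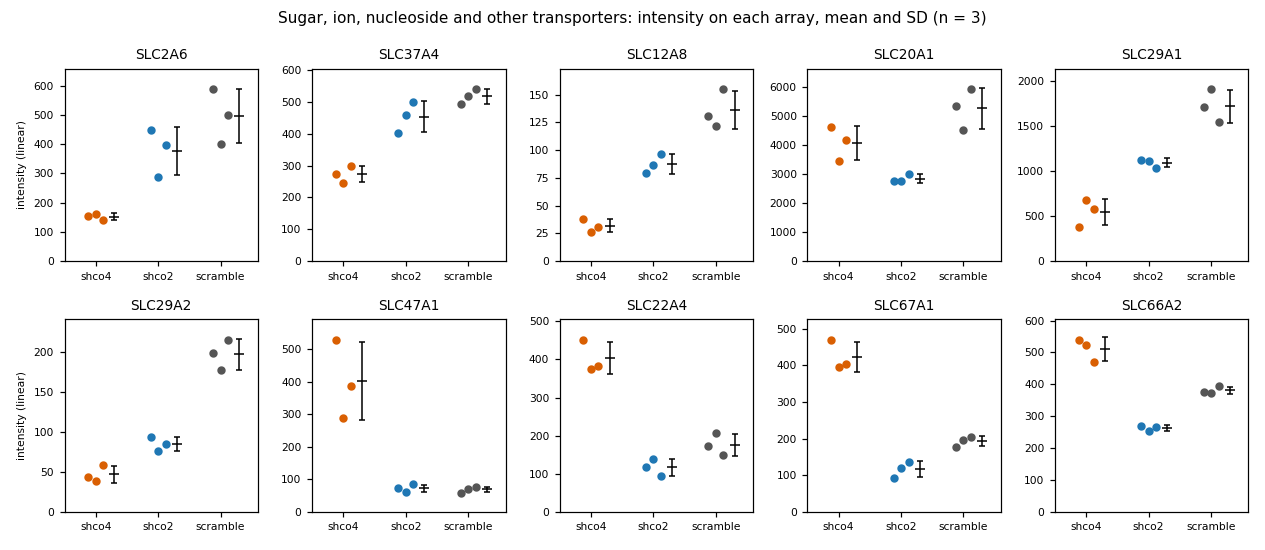
Linear intensity (vertical axes, from 0) of 10 sugar, ion, nucleoside and other transporter genes on each array of shco4, shco2 and scramble cells, with the mean and SD of 3 arrays beside the points. SLC29A1, SLC29A2 and SLC12A8 are lowest with shco4 and highest with scramble, and SLC47A1 is higher with shco4 than in both other groups.

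A further 52 probe sets read 38 of the 120 genes. With shco4 37 of them had the same call as the chosen probe set, with shco2 42 and between the hairpins 40, and 0 were called in the opposite direction. SLC35E1 was an exception of another kind: its chosen probe set was not called with shco4 (0.29), and its other two fell (-1.11 and -0.92). Below the threshold lay 118 SLC genes, of which 3 rose and 2 fell with shco4, and 3 rose and 3 fell with shco2. Over all 22215 probe sets, 9.05% rose and 9.75% fell with shco4, and 10.7% and 9.95% with shco2.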

How the data were processed

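Per the labels' protocols, 200 ng of total RNA per sample was converted to biotin-labelled cRNA and hybridised to an Affymetrix 3′ array. The deposited values are linear intensities per probe set; the summary software is not given in the sources used here. Intensities were floored at 16 and log2-transformed. After removal of 62 controls, 22215 probe sets were tested, dim ones included. In R 4.3.3, limma 3.58.1 (lmFit, eBayes) estimated 3 group means from the 9 arrays. Tests are two-sided, with Benjamini-Hochberg adjustment over all 22215, and a call is an adjusted p under 0.05. Fold changes are 2 to the power of the log2 change. Symbols came from the platform annotation and RefSeq (GRCh38.p14), and all 120 genes matched. Upstream windows were found for 98 of them.

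The genes, classes, partner genes and motifs were chosen with earlier results of these data known. The text names, per comparison and class, the 2 called genes with the largest change in each direction whose groups do not overlap, with a fixed list of well-known transporters; not all are given in full. Some genes of these lists are not reported here. Replicates are labelled biological; p-values measure the spread between these 3 cultures per group, and the number of arrays limits the precision. Deviations from the group means correlated between same-numbered shco4 and scramble arrays (0.236, 0.133 and 0.234). The main fit, which gave all calls and adjusted p-values unless stated, had no block for the replicate number. The paired fit was run as an alternative. Alternatives changed the normalization, floor, filter, variance model, arrays, block, probe set and threshold. The fit was checked on simulated data.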

Additional observations from a re-analysis of the deposited data

Results flagged for a closer look

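In 12 genes both hairpins were called against scramble in opposite directions. That is 10.0% of the 120, beside 6.4% of the 7541 genes above the same mean. The test of shco4 against shco2 also passed in these 12, which opposite calls bring about, so it is no separate support. The log2 difference of shco4 minus shco2 was positive in SLC1A3 (3.08), SLC67A1 (1.87), SLC25A37 (1.55), SLC30A9 (1.07) and SLC66A2 (0.96). It was negative in SLC25A40 (-2.31), SLC1A4 (-1.67), SLC39A6 (-1.62), SLC39A14 (-1.60), SLC25A4 (-1.34), SLC7A1 (-1.26) and SLC35C1 (-1.26). Of these, 3 are zinc transporters, 3 are mitochondrial carriers and 3 are amino acid transporters. Both hairpins were set against the same scramble arrays. SLC1A3 lay above the mean of 6 in 2 of the 3 groups, so a difference between groups could bring it in.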

How the results depend on the processing

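The 6 counts of transporters called kept within 1.5 times their value under each alternative. With an array left out, shco4 against scramble gave 13 to 18 up and 20 to 27 down, shco2 against scramble 18 to 25 up and 17 to 24 down, and shco4 against shco2 20 to 23 up and 38 to 43 down. With the replicate block the same pairs of counts were 19 and 34, 30 and 23, and 24 and 47. With dim probe sets left out of the fit they were 23 and 32, 26 and 30, and 30 and 52. The main fit gave 16 and 29, 25 and 22, and 23 and 45. Among counts by class, 57 of 570 moved by over 1.5 times. Of 97 calls of named genes, 72 were kept with each array left out and 25 were lost without some array. The difference of SLC2A1 between shco4 and shco2 was 0.27 and not called, and its second probe set gave -0.76 (limma adjusted p = 0.00356); the cause was not tested. The same-numbered arrays of shco2 and scramble correlated at 0.289, 0.0567 and 0.254, and those of shco4 and shco2 at 0.179, 0.0576 and 0.214. A shared number is no more than a hint of pairing, also for shco4 and scramble. In the comparisons that include shco2 arrays, the block brought in calls of SLC22A4 (adjusted p = 0.042) and SLC7A5 (0.00863) with shco2. It also brought in SLC7A5 between the hairpins (0.00175), where it lost SLC38A2 (0.0546). SLC1A3, SLC12A8 and SLC29A2 were dim in some groups, which limits the precision of their changes. A difference between groups could also bring each of them into the set.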

Other observations

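Among the 118 SLC genes below the threshold, SLC68A1 averaged 12.4 in shco4, 76.6 in shco2 and 72.9 in scramble cells, with 2 of its 3 shco4 arrays at the floor, so the fitted change of -2.03 depends on the floor. SLC30A4, a zinc transporter of vesicles, averaged 57.9 in shco2 and 26.9 in scramble cells and rose with shco2 (log2 change 1.15, limma adjusted p = 0.0439). SLC2A10, a sugar transporter, averaged 64.4 in shco4, 16.7 in shco2 and 52.2 in scramble cells and fell with shco2 by 1.31 (limma adjusted p = 0.0184), with 1 of its 3 shco2 arrays at the floor, so this change depends on the floor too. These genes were chosen after their values were seen.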
